A study of Homo sapiens with 8 samples.

Results

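Ceruloplasmin (CP) and 9 other genes of cellular iron handling were examined in UM-RC-2 cells carrying VHL or VEC, a construct that the labels do not describe further. The 10 genes were given as a list of symbols, and all 10 were found among the 43682 gene symbols of the RNA count tables. CP was chosen by its own counts, which were lower with VHL in these same libraries, so its values are described here without a test. The others, TFRC, TF, SLC11A2, SLC40A1, HMOX1, FTH1, FTL, IREB2 and ACO1, were listed for what they do in iron handling, at a time when results of these data were already known. Of the 10 genes, 9 passed the filter on low counts and 1, TF, did not.

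UM-RC-2 is an established line of clear cell renal cell carcinoma with a mutated VHL gene, per the labels. Both groups received a lentivirus and were selected in 10 µg/ml blasticidin, one for VEC and one for VHL, and both were grown in DMEM with serum. The labels do not say whether the selected cells were pools or single clones, or whether replicates came from separate cultures, so p-values measure only the spread between these libraries. RNA was sequenced from 2 VEC and 2 VHL libraries, which are 4 of the 8 samples of the series. The H3K27ac samples of the series have regions without positions and were not used here. In the labels both replicate 1 libraries are total RNA and both replicate 2 libraries are polyA RNA. The comparison therefore ran within each replicate number, VHL replicate 1 against VEC replicate 1 and VHL replicate 2 against VEC replicate 2.

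Cells take up iron mainly as iron-loaded transferrin through the transferrin receptor, move it out of endosomes through a divalent metal transporter, store it in ferritin, and export it through ferroportin. Ceruloplasmin is a secreted copper enzyme that oxidises the exported iron so that transferrin can bind it. A pair of RNA-binding proteins, the products of ACO1 and IREB2, sense iron and bind elements in the transcripts of TFRC and of both ferritins, so much of this system is set by transcript stability and translation. The VHL protein sends the oxygen-sensitive subunits of hypoxia-inducible factors to the proteasome. CP, TF, TFRC and HMOX1 are textbook targets of these factors, and renal carcinoma cells without working VHL keep the factors active.

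The libraries held 21306867 (VEC) and 16230291 (VHL) counts in replicate 1, and 50027348 and 46609709 in replicate 2. They separated by replicate number far more than by group. Across 24417 genes, log2 CPM (library-scaled counts, with TMM factors) correlated at 0.985 and 0.981 between VEC and VHL of the same number, and at 0.452 between the VEC libraries. This is a description, as genes are not independent replicates. The VHL gene gave 37.1 (VEC) and 146 CPM (VHL) in replicate 1, against 88.9 and 151 CPM in replicate 2, higher in the VHL library of both pairs. Counts per symbol do not separate introduced from resident VHL transcripts. With the replicate number as a term in edgeR's quasi-likelihood fit (two-sided, Benjamini-Hochberg adjusted over all genes), 3.1% of the 24417 tested genes were called at an adjusted p under 0.05, 2.35% lower and 0.749% higher in VHL. With group as the only term 0 genes were called (edgeR, 22 at an unadjusted p under 0.05), and every call below rests on the fit with the replicate term, which leaves 1 residual degree of freedom.

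CP was 13.5-fold lower with VHL in the replicate 1 pair and 10.4-fold lower in the replicate 2 pair. It stood at 29.0 (VEC) and 2.14 CPM (VHL) in replicate 1, and at 15.6 and 1.49 CPM in replicate 2. Both VEC libraries were thus far above both VHL libraries, and the groups did not overlap; 3.39% of all tested genes had all VHL values below all VEC values. The VHL libraries retained 7.39% and 9.58% of the CPM of their VEC partners. Those low values rest on 40 and 61 counts, against 672 and 711 in VEC. Exact Poisson 95% intervals, which cover counting error only, were 1.53 to 2.92 CPM and 1.14 to 1.92 CPM for the VHL libraries, against 26.9 to 31.3 CPM and 14.5 to 16.8 CPM for VEC. On the log2 scale CP differed by -3.72 and -3.33 in the pairs, and the fitted difference over both was -3.56 ± 0.32 (SE, n = 2 per group). Only 16 of the 24417 tested genes had a lower fitted value. These differences are the values that put CP on the list. In bulk libraries, fewer cells with CP transcripts and less CP transcript per cell cannot be told apart.

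**Figure D1:**
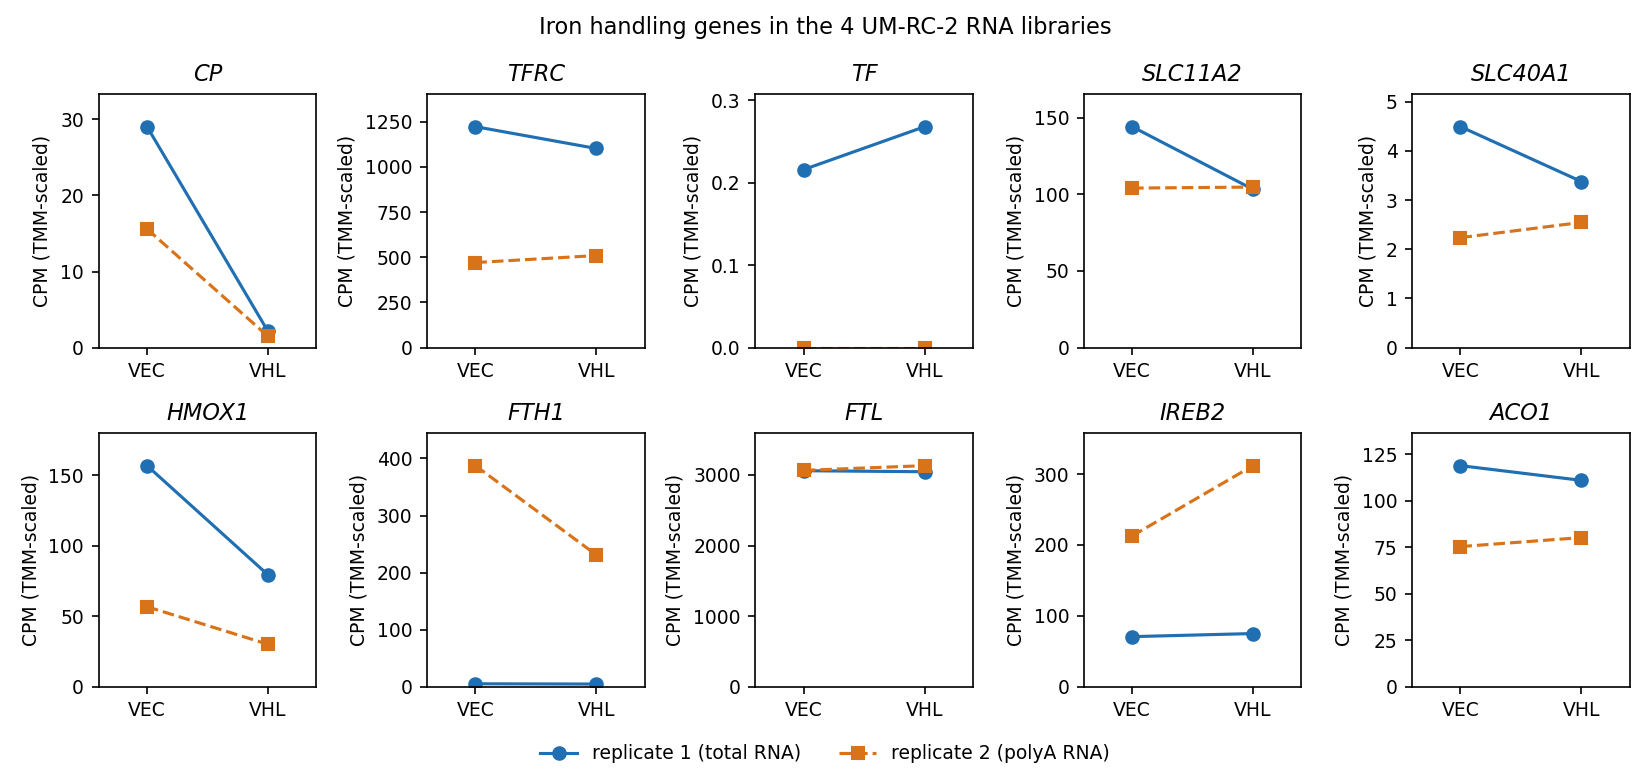
TMM-scaled CPM (vertical axes, each from 0) of the 10 genes in the VEC and VHL libraries, with lines joining libraries of the same replicate number. CP and HMOX1 are lower in VHL in both pairs, FTH1 and IREB2 sit far higher in replicate 2 than in replicate 1, and TF is at or near 0 in every library.

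The CP locus has copies that could share its reads. The pseudogene CPP, looked at after its values were seen, had 22 (VEC) and 26 (VHL) counts in replicate 1, and 195 and 21 in replicate 2. It was therefore lower with VHL in the polyA pair, with a log2 difference of -2.91, and not in the total RNA pair, with 0.52. It was not called (edgeR adjusted p = 0.155). How reads that map to several places were counted is not given in the sources used here. CPHL1P, a pseudogene related to ceruloplasmin and hephaestin, had 27 and 0 counts in replicate 1 and 1 and 2 in replicate 2.

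The genes whose pair changes lay closest to those of CP were KSR1, KCTD16, HIF1A-AS3, IGFBP3 and APLN. Likeness was the Euclidean distance over the log2 changes of the 2 pairs, among 10016 genes with at least 100 counts in each VEC library, and is a description over 2 pairs only. KSR1, a scaffold of the MAP kinase cascade, was nearest at a distance of 0.18. It went from 311 to 23.2 CPM in the total RNA pair and from 137 to 15.4 CPM in the polyA pair. KCTD16, at a distance of 0.41, went from 15.1 to 1.34 CPM (replicate 1) and from 8.20 to 0.612 CPM (replicate 2). IGFBP3, a secreted carrier of insulin-like growth factors, went from 130.0 to 14.7 CPM (replicate 1) and from 51.5 to 6.88 CPM (replicate 2). APLN, which encodes the peptide apelin, went from 16.5 to 2.04 CPM (replicate 1) and from 9.43 to 1.18 CPM (replicate 2). HIF1A-AS3 went from 6.26 to 0.697 CPM (replicate 1) and from 4.10 to 0.441 CPM (replicate 2), and as an antisense gene it is uncertain, since the strand setting is not given in the sources used here. Among the same genes with at least 100 counts in each VEC library, 10 including CP were lower by at least 3 on the log2 scale in both pairs.

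**Figure D2:**
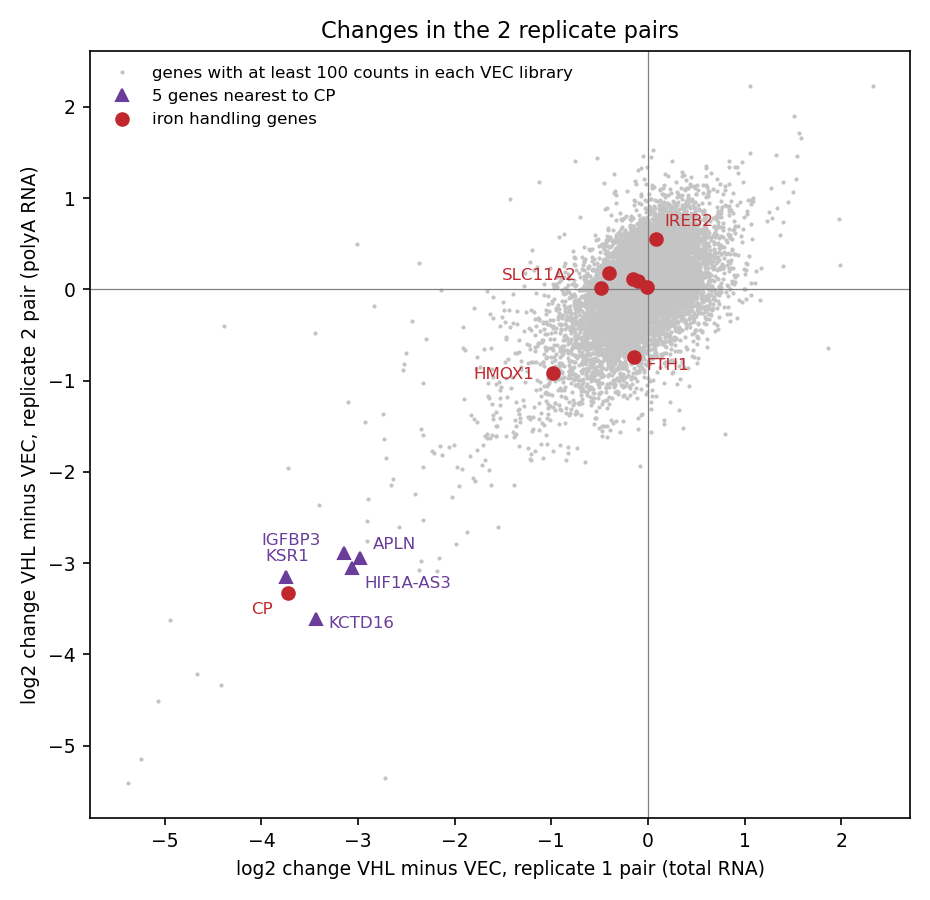
Log2 change, VHL minus VEC, in the replicate 1 pair (horizontal) against the replicate 2 pair (vertical); grey points are genes with at least 100 counts in each VEC library, red points the iron handling genes and purple triangles the 5 genes nearest to CP. CP lies at -3.72 and -3.33, away from the bulk of genes, HMOX1 lies at -0.98 and -0.91, and the other iron handling genes lie within 0.75 of 0 in each pair.

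Of the 8 tested members other than CP, 1 was called, HMOX1, which was lower; 3.1% of all tested genes were called. The other 7 were not called, and 1 of them, FTH1, had an unadjusted p under 0.05 (edgeR, 0.0412). The median fitted log2 change of the 8 was -0.06, against -0.03 over all tested genes. Both pairs had the same sign in 3 of the 8, against 47.7% of all tested genes, and opposite signs in 5, against 32.4%. A further 19.9% of all tested genes had no difference, and so no sign, in at least 1 pair. All 8 members had a sign in both pairs, so these shares are not on like terms. On the log2 scale 5 of the 8 stayed within 0.5 of 0 in both pairs. The groups overlapped in all 8, while 7.86% of all tested genes had groups that did not overlap, 3.39% lower and 4.47% higher in VHL.

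**Figure D3:**
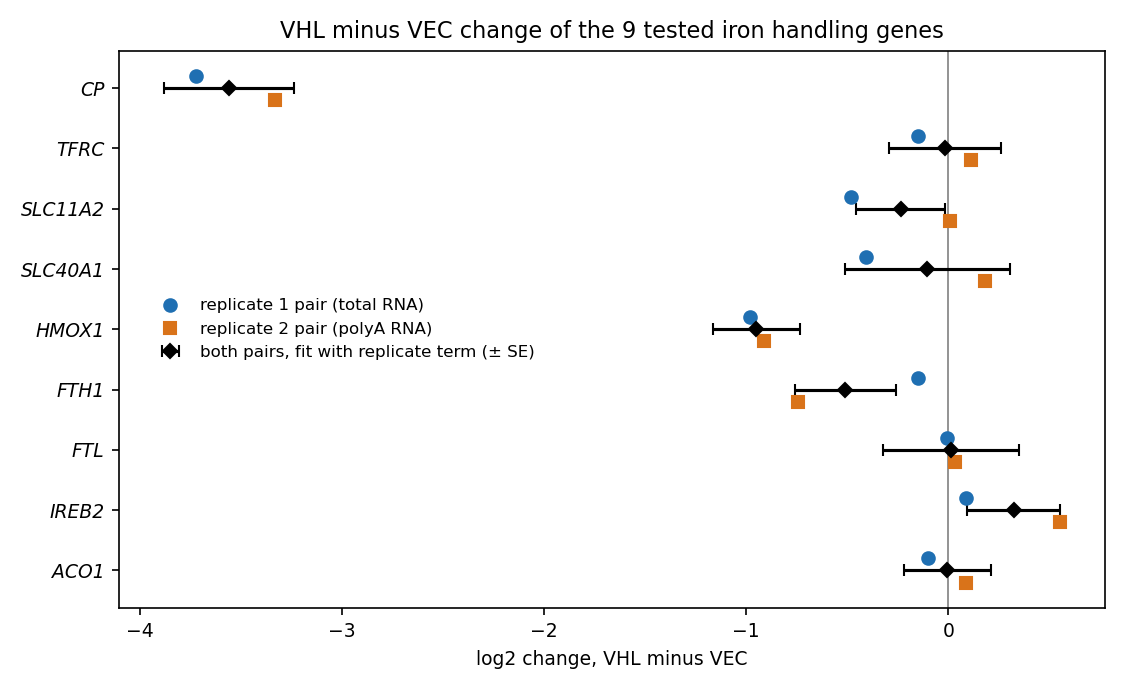
Log2 change, VHL minus VEC, of the 9 tested genes; circles are the replicate 1 pair, squares the replicate 2 pair, and diamonds the edgeR fit over both with the replicate term, with bars of 1 SE. CP and HMOX1 are the genes whose pair values lie together and away from 0, and the bars of TFRC, SLC40A1, FTL and ACO1 cross 0.

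On the uptake side, TFRC and SLC11A2 were not called and TF was barely detected. TFRC, the transferrin receptor, stood at 1222 (VEC) and 1101 CPM (VHL) in replicate 1, and at 471 and 509 CPM in replicate 2. VHL was thus slightly below VEC in one pair and slightly above it in the other, while replicate 1 was 2.60-fold (VEC) and 2.16-fold (VHL) above replicate 2. The fitted log2 change was -0.02 ± 0.28 (SE, n = 2 per group, edgeR adjusted p = 0.997), with a 95% interval from -0.56 to 0.53. SLC11A2 encodes DMT1, which carries ferrous iron across membranes. It was at 144 (VEC) and 103 CPM (VHL) in replicate 1, but at 104 and 105 CPM in replicate 2. The VHL library was below VEC in the total RNA pair alone, and the fitted change was -0.23 ± 0.22 (edgeR adjusted p = 0.810, 95% interval -0.67 to 0.20). TF, transferrin itself, had 5 counts in each replicate 1 library and 0 in each replicate 2 library, where 3 counts would correspond to 0.0658 (VEC) and 0.0734 CPM (VHL). No difference between groups was detectable at that depth.

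Upstream sequence was available for 7 of the 10 genes, from a RefSeq table on GRCh38.p14, while the counts are on hg19. It was missing for CP, HMOX1 and FTH1, so the search covered neither CP nor the called member, HMOX1. The 250 bases before each annotated start were searched on both strands for ACGTG and GCGTG, the core letters of the element bound by hypoxia-inducible factors. At least 1 match was present in 6 of the 12 windows of these genes, against 43.2% of all 35116 windows of that length. The windows of TFRC, FTL and SLC40A1, an uptake, a storage and an export gene with 1 annotated start each, are shown because their transcripts were not called, with and without such letters upstream; capitals mark the matches.
TFRC, chr3:196082091-196082340, minus strand: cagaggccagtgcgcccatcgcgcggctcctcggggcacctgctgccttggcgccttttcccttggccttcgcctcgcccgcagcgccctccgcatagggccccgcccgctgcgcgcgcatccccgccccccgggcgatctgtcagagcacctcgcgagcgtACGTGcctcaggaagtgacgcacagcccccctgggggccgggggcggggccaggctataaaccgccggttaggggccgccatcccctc
FTL, chr19:48965059-48965308, plus strand: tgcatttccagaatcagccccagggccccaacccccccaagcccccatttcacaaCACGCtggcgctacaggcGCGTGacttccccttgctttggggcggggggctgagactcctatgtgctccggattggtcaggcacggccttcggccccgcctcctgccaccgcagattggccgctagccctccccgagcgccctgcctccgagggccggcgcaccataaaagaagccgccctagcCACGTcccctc
SLC40A1, chr2:189580787-189581036, minus strand: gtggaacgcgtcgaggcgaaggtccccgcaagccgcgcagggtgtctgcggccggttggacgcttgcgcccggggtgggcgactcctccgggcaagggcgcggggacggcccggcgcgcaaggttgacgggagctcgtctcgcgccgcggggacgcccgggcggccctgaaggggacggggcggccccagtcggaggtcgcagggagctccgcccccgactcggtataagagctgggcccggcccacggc
TFRC has 1 match, 88 bases before its start, FTL has 3, and SLC40A1 has none in this window. A match describes letters and is not a measured binding site.

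Around the receptor, 14 further genes of uptake were listed and 13 were tested. CUBN alone was called by edgeR, and DESeq2 with the replicate term called CUBN and LRP2. CUBN encodes cubilin, an endocytic receptor of the proximal tubule that takes up transferrin among other proteins. It fell from 359 to 70.4 CPM in the total RNA pair and from 153 to 52.6 CPM in the polyA pair. Both VHL libraries were below both VEC libraries, at 19.6% and 34.5% of their partners. The fitted change was -1.94 ± 0.24 (SE, n = 2 per group, edgeR adjusted p = 1.99e-13). LRP2, which encodes megalin, the partner of cubilin, went from 2617 to 1514 CPM (replicate 1) and from 1051 to 646 CPM (replicate 2) and was not called by edgeR (-0.75 ± 0.30, adjusted p = 0.201). The median of the 13 tested genes was -0.06, against -0.03 over all tested genes, of which 3.1% were called.

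For export, SLC40A1 was low and was not called. SLC40A1 encodes ferroportin, the only known iron exporter of mammalian cells. It stood at 4.49 (VEC) and 3.38 CPM (VHL) in replicate 1, and at 2.24 and 2.55 CPM in replicate 2, from 63 to 104 counts per library. The VHL value was below VEC in one pair and above it in the other. Its fitted change was -0.10 ± 0.41 (SE, n = 2 per group) at an edgeR adjusted p of 0.985, and the 95% interval ran from -0.90 to 0.69. HEPH, the membrane-bound homologue of ceruloplasmin, had 0 counts in all 4 libraries. HEPHL1, the third gene of that family, had 37 (VEC) and 16 (VHL) counts in replicate 1 and 12 and 8 in replicate 2 and was not called (edgeR adjusted p = 0.846). HAMP, which encodes hepcidin, the hormone that removes ferroportin, had between 0 and 11 counts and was not tested. None of the 9 tested genes of the export and hepcidin list other than the members was called by edgeR (0 at an unadjusted p under 0.05), and 1 was called by DESeq2 with the replicate term.

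The ferritin genes could not be read in the same way in both pairs. Ferritin stores iron in a shell of heavy chains (FTH1), which oxidise iron, and light chains (FTL). FTH1 was at 5.05 (VEC) and 4.56 CPM (VHL) in replicate 1, from 117 and 85 counts. In replicate 2 it was at 387 and 231 CPM, from 17669 and 9436 counts, which is 76.7-fold (VEC) and 50.7-fold (VHL) above replicate 1. FTL, by contrast, stood at 3060 and 3045 CPM in replicate 1 and at 3065 and 3132 CPM in replicate 2, all within a narrow range. Libraries with few FTH1 counts thus held ample FTL counts.

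Pseudogenes took most of the ferritin heavy chain counts in replicate 2. Over 25 symbols named FTH1P with a number, replicate 1 held 80 (VEC) and 43 (VHL) counts, and replicate 2 held 385399 and 243156. Their share of all FTH1 and FTH1P counts was 40.6% (exact binomial 95% interval 33.7% to 47.8%) and 33.6% (25.5% to 42.5%) in replicate 1. In replicate 2 it was 95.6% and 96.3%, so that FTH1 itself held 4.38% and 3.74%. The most abundant were FTH1P10, with 34891 (VEC) and 26309 (VHL) counts in replicate 2 and 2 and 1 in replicate 1, FTH1P20, with 37013 and 22205, and FTH1P7, with 33653 and 21609. The FTL family showed the same split at a smaller size. Over 19 FTLP symbols the share was 1.32% and 1.28% in replicate 1, and 57.6% and 54.9% in replicate 2. FTLP3 had 80863 and 65668 counts in replicate 2 against 138 and 115 in replicate 1, FTLP2 had 56367 and 35540 against 795 and 606, and FTLP5 had 22169 and 30942 against 5 in each. Reads of a ferritin transcript and of its near-identical copies cannot be told apart in these tables, and the RNA label, the form of the alignment name and the replicate number change together.

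**Figure D4:**
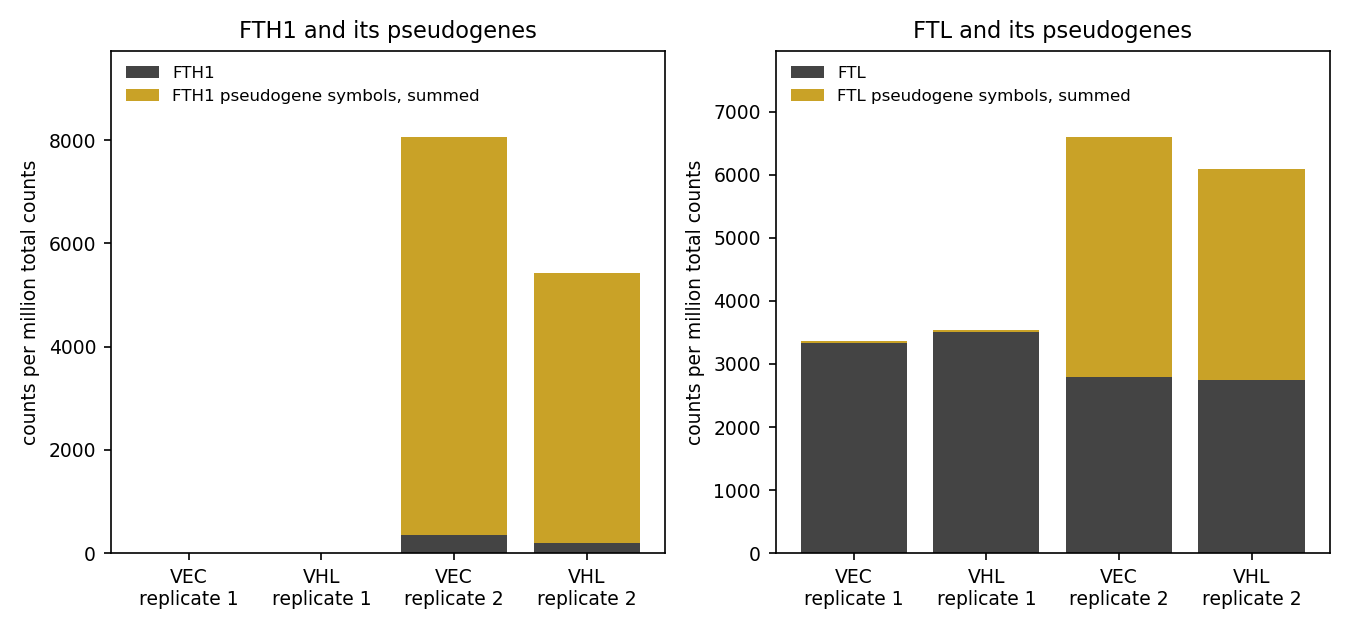
Counts scaled to the unadjusted library total, as labelled on the vertical axes (from 0), of FTH1 and of FTL, dark, with the summed counts of their pseudogene symbols stacked in yellow, in the 4 libraries. FTH1 and its pseudogenes are near 0 in replicate 1, and pseudogene symbols hold over 95% of the FTH1 family and over 54% of the FTL family in replicate 2.

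Neither ferritin gene was called, whichever way its reads were summed. FTH1 differed by -0.15 in the replicate 1 pair and by -0.75 in the replicate 2 pair. The fit gave -0.51 ± 0.25 (SE, n = 2 per group), with an edgeR adjusted p of 0.361 and a 95% interval from -0.997 to -0.020. The lowest adjusted p for FTH1 over the alternatives was 0.0553, in the edgeR fit of protein-coding genes alone. All 19 tested FTH1P symbols were lower in VHL in the replicate 2 pair, by -0.14 to -1.77 with a median of -0.52, and they share reads with each other and with FTH1. None of the 19 was called by edgeR (2 at an unadjusted p under 0.05), and 1 was called by DESeq2 with the replicate term. With the pseudogene counts added to FTH1 before the fit, the difference was -0.31 and -0.52 in the pairs and -0.43 ± 0.36 overall (edgeR adjusted p = 0.768). For FTL the pairs gave -0.01 and 0.03, and the fit 0.01 ± 0.34 (edgeR adjusted p = 0.999, 95% interval -0.65 to 0.67). Summed with its pseudogenes it gave -0.03 ± 0.35 (edgeR adjusted p = 0.997), on the other side of 0 and also close to it. Of the 6 other tested genes of storage and iron chaperoning, 0 were called by edgeR (1 at an unadjusted p under 0.05) and 1, NCOA4, by DESeq2 with the replicate term. NCOA4, the receptor that delivers ferritin to lysosomes, went from 796 to 511 CPM (replicate 1) and from 347 to 258 CPM (replicate 2) and was not called by edgeR (-0.53 ± 0.26, adjusted p = 0.357).

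The iron-regulatory proteins were not called either. ACO1 encodes IRP1, which is a cytosolic aconitase when it carries an iron-sulphur cluster. It stood at 119 (VEC) and 111 CPM (VHL) in replicate 1, and at 75.3 and 80.1 CPM in replicate 2. The VHL value was 93.3% of VEC in one pair and 106% in the other, and the fitted change was -0.00 ± 0.22 (SE, n = 2 per group, edgeR adjusted p = 0.9996, 95% interval -0.43 to 0.42). IREB2 encodes IRP2, which is degraded when iron is plentiful. It was at 70.6 and 74.99 CPM in replicate 1, and at 213 and 312 CPM in replicate 2. VHL was above VEC in both pairs, by 0.09 and 0.55 on the log2 scale, and 22.8% of all tested genes were higher in both pairs. The fitted change was 0.32 ± 0.23 (edgeR adjusted p = 0.671, 95% interval -0.13 to 0.77). IREB2 was 3.01-fold (VEC) and 4.16-fold (VHL) higher in replicate 2 than in replicate 1, opposite in direction to ACO1, which was 1.58-fold and 1.38-fold higher in replicate 1. Of 5 genes of the ligase complexes that turn these proteins over, 0 were called (edgeR, 0 at an unadjusted p under 0.05; DESeq2 with the replicate term, 0). FBXL5, the iron-sensing subunit that marks IRP2 for degradation, had log2 differences of -0.40 and 0.17.

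HMOX1 fell with VHL, by a similar factor in both pairs. HMOX1 encodes haem oxygenase 1, the inducible enzyme that opens the haem ring and releases its iron. It went from 157 to 79.3 CPM in the total RNA pair and from 56.7 to 30.1 CPM in the polyA pair, so that VHL retained 50.6% and 53.0% of VEC. Each VHL library was below its VEC partner, while VHL of replicate 1 remained above VEC of replicate 2, so the groups overlapped across replicate numbers. The pair changes were -0.98 and -0.91 on the log2 scale, and the fitted change was -0.95 ± 0.22 (SE, n = 2 per group, edgeR adjusted p = 0.00106). With group as the only term the change was -0.96 ± 0.88 and was not called (edgeR adjusted p = 0.999991). HMOX1 was called in each of the 6 other fits that kept the replicate term, with adjusted p-values from 9.70e-22 (DESeq2) to 0.00374 (edgeR without a filter).

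Beside HMOX1, 16 further genes of haem breakdown and transport were listed and 13 tested. Of the 13, 3 were called, 2 lower and 1 higher, beside 3.1% of all tested genes (2.35% lower, 0.749% higher). BLVRB encodes a biliverdin reductase, the step after haem oxygenase. It fell from 39.9 to 24.9 CPM (replicate 1) and from 8.16 to 3.94 CPM (replicate 2) (-0.85 ± 0.25, edgeR adjusted p = 0.0322). LRP1, an endocytic receptor that clears haem bound to haemopexin among many ligands, fell from 9.16 to 4.29 CPM (replicate 1) and from 20.7 to 5.70 CPM (replicate 2) (-1.51 ± 0.30, edgeR adjusted p = 9.94e-05). ABCG2, a transporter that exports drugs and porphyrins, rose from 5.01 to 10.0 CPM (replicate 1) and from 1.67 to 4.92 CPM (replicate 2) (1.27 ± 0.36, edgeR adjusted p = 0.0172). ABCG2 was called in 5 of the 6 other fits with the replicate term, and DESeq2 gave no adjusted p for it. DESeq2 called BLVRB and LRP1 of this list. The constitutive haem oxygenase HMOX2 had log2 differences of -0.23 and -0.12 and was not called (edgeR adjusted p = 0.921). Of 13 tested genes of haem synthesis 1 was called, beside the same 3.1% of all tested genes. This was FECH, which encodes ferrochelatase, the enzyme that inserts iron into the ring. It rose from 44.4 to 63.0 CPM (replicate 1) and from 31.3 to 69.1 CPM (replicate 2) (0.83 ± 0.21, edgeR adjusted p = 0.00702). DESeq2 with the replicate term called FECH and, named after their values were seen, UROD and ABCB6, both lower. The medians of the haem breakdown and synthesis lists were -0.12 and -0.10, against -0.03 over all tested genes.

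HMOX1, FTH1 and FTL are also textbook targets of the stress-response factor NRF2. Beside them 17 other genes of the NRF2 system were read, most of them targets, with NFE2L2 and KEAP1 as the exceptions. Of the 17, 2 were called and both were higher in VHL, beside 3.1% of all tested genes called and 0.749% called higher. NRF2 activity was not measured, and its part in any of these changes was not tested. SRXN1, which repairs oxidised peroxiredoxins, rose from 233 to 394 CPM (replicate 1) and from 67.6 to 118 CPM (replicate 2) (0.78 ± 0.23, edgeR adjusted p = 0.0347). ME1, the cytosolic malic enzyme, rose from 116 to 188 CPM (replicate 1) and from 153 to 262 CPM (replicate 2) (0.74 ± 0.23, edgeR adjusted p = 0.0459). Both were called in 5 of the 6 other fits with the replicate term, the exception being the fit without a filter, and DESeq2 also called SLC7A11, higher in VHL. The median of the 17 genes was 0.15, 10 were higher in both pairs and 1 was lower in both, beside shares of 22.8% and 25% among all tested genes. In 19.9% of all tested genes both libraries of a pair had 0 counts, and such genes have no sign in that pair. NFE2L2, the gene of NRF2 itself, had pair differences of 0.01 and -0.01 (edgeR adjusted p = 0.9998).

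Genes of mitochondrial iron and of iron-sulphur clusters had no call among 30 tested (edgeR, 4 at an unadjusted p under 0.05). DESeq2 with the replicate term called 2 of these genes. Their median was -0.14, against -0.03 over all tested genes and 0.01 over the protein-coding ones. In both pairs 15 were lower and 5 higher, beside shares of 25% and 22.8% among all tested genes. Those shares also count the 19.9% of genes without a sign in at least 1 pair, so they are not on like terms. Ceruloplasmin carries copper that is loaded in the secretory pathway by the pumps ATP7A and ATP7B. Copper handling genes had no call among 16 tested (edgeR, 2 at an unadjusted p under 0.05; DESeq2 with the replicate term, 0), with a median of -0.03. Log2 differences were 0.02 and 0.41 for ATP7A, 0.34 and -0.12 for ATP7B, and -0.21 and 0.13 for SLC31A1, the copper importer. Over all lists, 7 of 119 tested genes other than members were called (5.88%), 4 higher and 3 lower, against 3.1% of all tested genes. All 7 had the same sign in both pairs. A call with the replicate term favours pairs that agree, so the shared sign is not separate evidence.

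**Figure D5:**
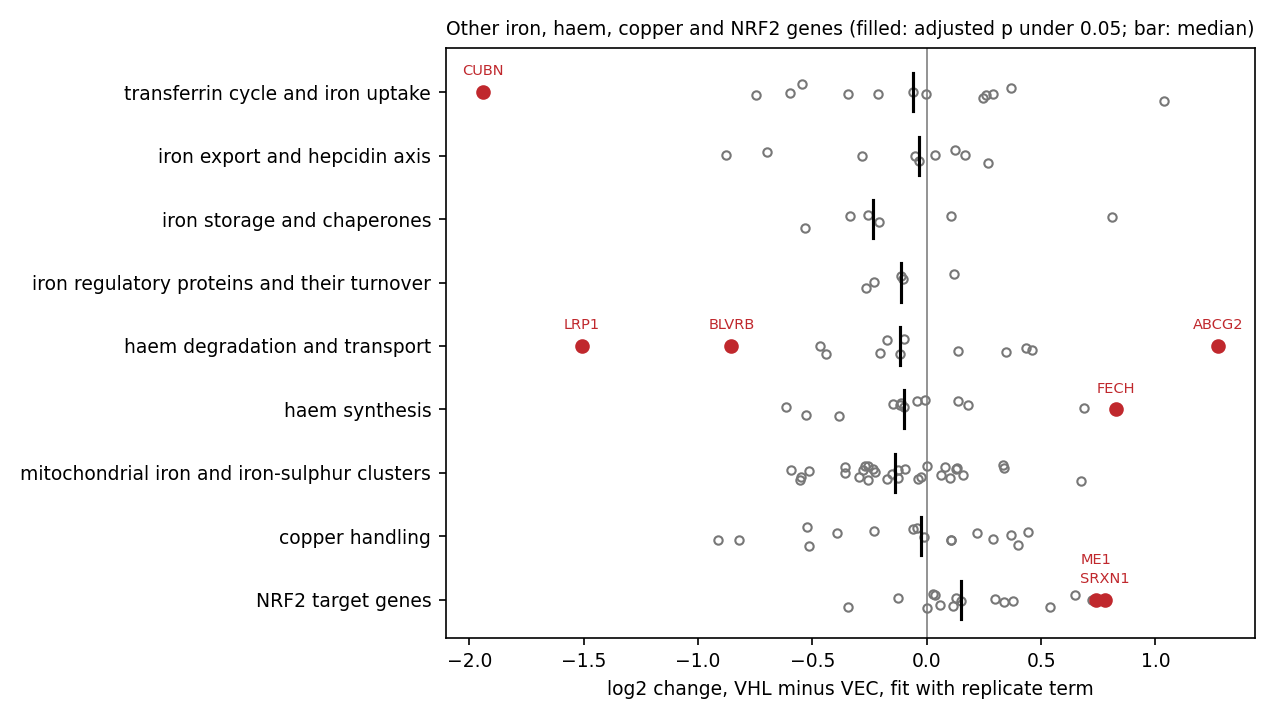
Fitted log2 change, VHL minus VEC (horizontal), of each tested gene of the 9 lists other than the members; filled red points were called at an adjusted p under 0.05 and black bars are list medians. The 7 called genes are named, from CUBN at -1.94 to ABCG2 at 1.27, and the list medians lie between -0.23 and 0.15.

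Most markers of the labelled cell type were present, and markers of the liver, the main source of plasma ceruloplasmin and transferrin, were near 0. Of 9 renal tubule markers, 7 reached 1 CPM in all 4 libraries, PAX8 among them at 40.8 to 75.9 CPM. EPCAM was under 1 CPM in each library. EMX2 was at 0.0864 (VEC) and 0.107 CPM (VHL) in replicate 1, and at 6.56 and 12.5 CPM in replicate 2. The summed level of the 9 renal tubule markers was 214 to 235 CPM in VEC and 165 to 224 CPM in VHL. All 10 hepatocyte markers were under 1 CPM in all libraries, with APOB, TTR and AHSG at 0 and a summed level of 1.18 to 1.34 CPM in VEC and 0.536 to 0.686 CPM in VHL. Macrophage markers summed to 18.4 and 87.6 CPM in VEC and 12.4 and 82.5 CPM in VHL, from CD68 and, in replicate 2 alone, LYZ, while 5 of the 8 were under 1 CPM throughout and AIF1 was at 0. Erythroid markers summed to at most 0.432 CPM in replicate 1 and to 57.9 (VEC) and 89.5 CPM (VHL) in replicate 2, nearly all from SLC4A1, and the haemoglobin genes HBA1, HBA2 and HBB had at most 2 counts in any library. All 6 fibroblast markers were under 1 CPM in every library. The part of the macrophage and erythroid symbols that were high in replicate 2 in any result was not tested.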

How the data were processed

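The deposited values are raw counts per gene symbol, 1 table per RNA library; the authors made them on hg19 with featureCounts and HOMER, per the submitters' processing notes, which give no versions. The aligner, annotation, strand setting and treatment of multi-mapped reads are not given in the sources used here. Groups and replicate numbers came from the titles. Counts were fitted in R 4.3.3 with edgeR 4.0.16 (filterByExpr, TMM, glmQLFit, glmQLFTest, two-sided), with group and replicate number as terms. The number was used as a term because the molecule label changes with it in both groups. Same-numbered libraries deviated together from their group means, with a correlation of 0.978. As they also share the molecule label, this value cannot show that they came from paired cultures. Calls were at a Benjamini-Hochberg adjusted p under 0.05 over all tested genes. SE was derived from the F statistic and the size of the fitted change, and 95% intervals are 1.96 SE each side. Pair changes are differences of log2 CPM with a prior count of 2. Named genes were the members, called list genes with 1 sign in both pairs (at most 6 per list), the 3 most abundant pseudogenes of each ferritin gene and the 5 genes nearest to CP. Other genes were named after their values were seen, for their role or because DESeq2 called them. Of the list genes that DESeq2 called, NEO1, ISCA1 and CISD1, all lower in VHL, were counted above without being named. Members, lists and the choice of fit were set with earlier results of these data known. Alternatives included a fit without the replicate term, DESeq2 1.42.0, other scalings and filters, and left-out libraries. The fits were tested on simulated data. Classes and sequences came from RefSeq (GRCh38.p14).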

Additional observations from a re-analysis of the deposited data

How the results depend on the processing

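The replicate term decided the calls. In place of 756 called genes, the fit with no replicate block called 0 (edgeR), and so it called 0 of the 8 tested iron handling genes other than CP and 0 of the 119 other listed genes, against 1 and 7. Leaving out each library in turn without the block also gave 0 to 0 for all 3 counts, with 1 to 11 genes at an unadjusted p under 0.05. HMOX1 was not called without the block, at -0.96, and its change ran from -1.83 to -0.052 with a library left out. Leaving out 1 library makes the groups unequal in replicate number, so those values also hold the difference between replicate numbers. CP ranged from -3.96 to -3.10 over the left-out libraries and pairs.

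With the replicate term kept, DESeq2's Wald test called 1215 genes (487 higher, 728 lower; 391 shared with the 756) and a filter at a mean of 20 counts in each pair called 1227 (486 higher, 741 lower; 540 shared). The reported fit had 183 higher and 573 lower, DESeq2 size factors gave 206 higher and 793 lower, and no filter gave 123 higher and 517 lower, so the split moved in either direction with the setting. The 1 call among the iron handling genes, HMOX1, was made in each of these fits. The 7 calls among other listed genes became 5 with no filter, 13 with DESeq2 size factors, 14 with its Wald test, 16 with the mean of 20 counts, 16 with protein-coding genes alone, and 12 with total counts scaling, an alternative added after seeing the data. Causes of these shifts were not tested.

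Some values changed sign, including those of FTH1 (-0.51 in the reported fit) and IREB2 (0.32), which were not near 0. FTL was -0.023 with DESeq2 size factors, -0.023 with the Wald test, -0.00089 with no filter, -0.015 with protein-coding genes alone and -0.033 summed with pseudogenes. ACO1 was 0.0075 with total counts scaling. With replicate 2 and then replicate 1 left out as a pair, the values were -0.099 and 0.090 for ACO1, -0.0069 and 0.031 for FTL, -0.48 and 0.0093 for SLC11A2, -0.41 and 0.18 for SLC40A1, and -0.15 and 0.11 for TFRC. With no block and a single library left out, the values on the other side of 0 were 0.34 (without VEC replicate 1) and 0.17 (without VHL replicate 2) for ACO1, 0.24 (without VHL replicate 1) and 4.59 (without VEC replicate 2) for FTH1, and -0.050 (without VHL replicate 2) for FTL. They were -0.14 (without VEC replicate 1) and -0.996 (without VHL replicate 2) for IREB2, 0.40 (without VEC replicate 1) for SLC40A1, and 0.78 (without VEC replicate 1) and 0.37 (without VHL replicate 2) for TFRC. Full ranges over these left-out libraries and pairs ran from -0.28 for ACO1, -5.54 for FTH1, -0.56 for SLC40A1 and -0.73 for TFRC, and up to 0.053 for FTL and 1.498 for IREB2. With no block, a single left-out library makes the groups unequal in replicate number, so these values also hold the difference between replicate numbers. FTH1 was 76.7-fold (VEC) and 50.7-fold (VHL) higher in replicate 2. The all-gene median of such fits ran from -0.65 (without VHL replicate 2) to 0.66 (without VEC replicate 2). Low counts limited TF, SLC40A1 and, in replicate 1, FTH1.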
